A study of Mus musculus with 6 samples.

Results

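The genes described here encode the subunits of the receptors for glutamate and GABA, with Lhfpl4, an auxiliary protein of synaptic GABA-A receptors. They were taken from a table of 55492 genes by symbol: all members of the Gria, Grin, Grik, Grid, Grm, Gabr and Gabbr families, and Lhfpl4, which was added by name. This gave 48 genes. RNA was measured in cells that magnetic microbeads against O4, a surface antigen of late oligodendrocyte progenitor cells (OPCs) and immature oligodendrocytes, had captured from whole brains of untreated mice on postnatal day 16. There were 3 WT mice and 3 Npc1-/- mice, and each mouse gave 1 poly(A) RNA library. The Npc1-/- mice carried the Npc1nih allele, bore the mutation in every cell type, and were F1 hybrids of BALB/cJ and C57BL6/J, and experimental mice were littermates per the study's methods. NPC1 exports cholesterol from late endosomes and lysosomes, and its loss causes Niemann-Pick disease type C, in which myelin forms poorly. The comparison asks whether O4+ cells without NPC1 carry different amounts of the transcripts with which a cell senses the transmitters released by neurons.

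Glutamate opens AMPA, NMDA and kainate receptors, which are ion channels built from different subunits, and it also acts on metabotropic (mGlu) receptors, which signal through G proteins. GABA opens GABA-A receptors, chloride channels most often built from alpha, beta and gamma subunits, and activates the GABA-B receptor, which couples to inhibitory G proteins. OPCs receive synapses from neurons and carry AMPA, NMDA, kainate and GABA-A receptors, and they lose much of this synaptic input as they differentiate.

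Values are given as scaled TPM, the deposited TPM (transcript abundance relative to the library total) divided by a size factor for each mouse. TPM is corrected for transcript length, so levels can be compared between genes. Log2 fold changes compare Npc1-/- with WT on log2 of scaled TPM plus 0.5, which understates the change of genes with low values, and were tested with limma over the 15245 genes whose TPM averaged 0.5 or more. Of the 48 receptor genes, 32 had that level. A gene was called at an adjusted p (Benjamini-Hochberg over all genes tested) below 0.05. The depth behind the values was about 40250000 to 50250000 fragments per library, as read from the steps between low values. Npc1 fell in the Npc1-/- mice, from 53.3, 50.4 and 45.5 TPM in the WT mice to 4.10, 4.42 and 3.16 TPM (limma log2 fold change −3.17, adjusted p = 0.000398). Npc1-/- replicate 3 stood apart from the other 5 mice in genes of the sex chromosomes, with Xist at 15.6 TPM against at most 0.01 elsewhere and Ddx3y at 0 TPM against at least 14.4. The log2 fold change without this mouse is therefore given for each receptor gene described in which it moved by more than 0.1. It is not given for the partner and marker genes, whose dependence on this mouse is left unstated. Without this mouse, 0 receptor genes were called higher and 1 lower, and 6 were higher and 9 lower without overlap. The counts over all genes without this mouse are not given here. The 6 and 9 are therefore not read as a result about the receptor genes. With fewer mice, groups without overlap are commoner among all genes too. Leaving out WT replicate 3, for example, raised them from 2033 to 2960 of the 15245 genes tested on the higher side. On the lower side they rose from 2159 to 2987. The size factors were 1.04 to 1.295 for WT and 0.727 to 1.102 for Npc1-/-. Mbp, encoding myelin basic protein, alone held 18.8 to 22.2% of TPM in WT and 20.2 to 26.1% in Npc1-/-, and TPM without this scaling gave a median log2 fold change of −0.33 over all genes, and 54 genes called higher against 870 lower.

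None of the 32 receptor genes tested was called with limma, in either direction. Among all genes tested, 0.4% were called higher in Npc1-/- and 0.413% lower. At an unadjusted p below 0.05, 1 receptor gene was higher (Lhfpl4) and 8 were lower (Gria1, Gria4, Grin2c, Grm3, Gabrb1, Gabrg1 and Gabbr2 among them), against 10.6% of all genes higher and 11.6% lower. In 2 receptor genes every Npc1-/- mouse lay above every WT mouse, and in 8 every Npc1-/- mouse lay below, against 13.3% and 14.2% of all genes. The 32 fold changes were evenly split, with 16 above 0 and 16 below. Their median was 0.00 (all genes 0.01), and they ran from −0.79 for Grm3 to 0.84 for Lhfpl4. The summed level of the 48 genes was 262.7, 269.2 and 278.5 scaled TPM in WT and 281.5, 292.2 and 312.5 in Npc1-/-. The separation of these sums rested on Lhfpl4 and on the size factors. In 2 further sums, taken after seeing the data, the groups overlapped. Leaving out Lhfpl4 gave 242.7, 244.9 and 249.9 scaled TPM in the WT mice and 246.5, 248.9 and 258.5 in the Npc1-/- mice. On TPM as deposited the 48 genes summed to 340.3, 297.9 and 289.2 in WT and 310.1, 249.8 and 227.1 in Npc1-/-, with the lower mean in Npc1-/-. Gabbr1 and Lhfpl4, among the most abundant of the 48, had the higher scaled means in Npc1-/-.

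**Figure D1:**
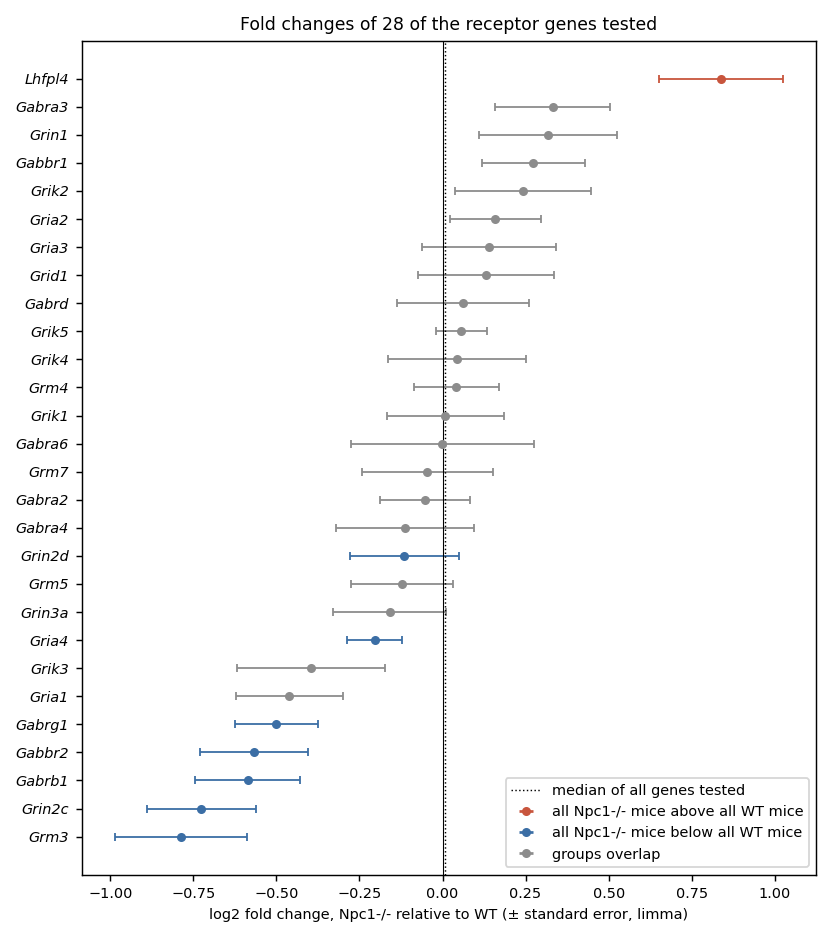
Log2 fold change of 28 of the 32 receptor genes tested, Npc1-/- relative to WT, with the standard error from limma as the bar, ordered by size. Red marks the 1 gene plotted in which every Npc1-/- mouse lay above every WT mouse, Lhfpl4, blue the 7 in which every Npc1-/- mouse lay below, grey the 20 whose groups overlap, and the dotted line marks the median of all genes tested at 0.01.

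**Figure D2:**
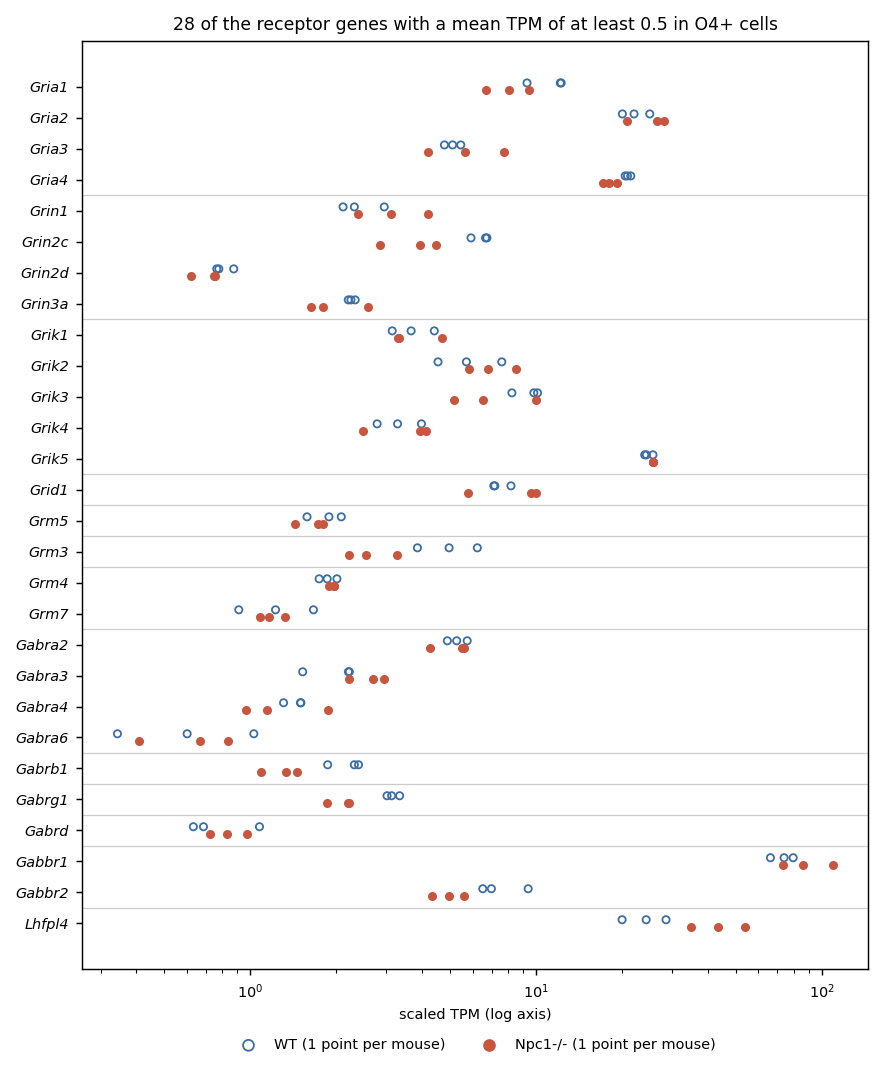
Level of 28 of the 32 receptor genes tested in each mouse in scaled TPM on a log axis, with open blue circles for the 3 WT mice, filled red circles for the 3 Npc1-/- mice and grey lines between receptor classes. Gabbr1 has the highest level, and Gabra6 lies near the lower end.

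Lhfpl4 (ENSMUSG00000042873, chr6:113168090-113195384, minus strand, GRCm38) encodes a tetraspan protein that binds GABA-A receptors and holds them at inhibitory synapses together with neuroligin 2. It had 20.03, 24.3 and 28.5 scaled TPM in the WT mice and 35, 43.2 and 54 in the Npc1-/- mice. Every Npc1-/- mouse lay above the highest WT mouse, and the means were 24.3 ± 4.25 and 44.1 ± 9.53 (SD, n = 3 each), a ratio of 1.81. The log2 fold change was 0.84 (SE 0.186) and limma's adjusted p was 0.0658, so the gene was not called. With each mouse left out in turn the fold change stayed between 0.68, without Npc1-/- replicate 3, and 0.99 on the log2 scale. Lhfpl4 is on the list because the study and earlier results of these data singled it out, so its direction here is not independent evidence. The study tested counts with DESeq2, a different test from the one used here. It placed Lhfpl4 among the genes raised in Npc1-/- O4+ cells that had less of the repressive histone mark H3K27me3 at their promoters. It also displayed the mark H3K27ac at this promoter, and its qRT-PCR probes included Lhfpl4. By qRT-PCR it reported rescue of neuronal genes in O4+ cells of Npc1-/- mice given a cyclodextrin that mobilizes cholesterol. In cultured Npc1-/- OPCs such genes were reduced by GSK-J4, an inhibitor of H3K27 demethylases. Those experiments are not part of the data used here. Markers of neurons in general summed to 336 to 359 scaled TPM in WT and 412 to 433 in Npc1-/-, with 11 of 12 log2 fold changes positive, and all 9 markers of mature oligodendrocytes were positive as well. Their part in the value of Lhfpl4 was not tested.

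Below are the 250 bases before the RefSeq start site (assembly GRCm38.p6, minus strand, 5′ to 3′) of the 4 receptor genes with the smallest limma p, Lhfpl4 at chr6:113195385-113195634, Grin2c at chr11:115267244-115267493, Grm3 at chr5:9725353-9725602 and Gabrg1 at chr5:70842618-70842867. They are shown because these genes carry the clearest differences, and they are unlike each other. Capitals mark each CG dinucleotide, the site of DNA methylation.
Lhfpl4: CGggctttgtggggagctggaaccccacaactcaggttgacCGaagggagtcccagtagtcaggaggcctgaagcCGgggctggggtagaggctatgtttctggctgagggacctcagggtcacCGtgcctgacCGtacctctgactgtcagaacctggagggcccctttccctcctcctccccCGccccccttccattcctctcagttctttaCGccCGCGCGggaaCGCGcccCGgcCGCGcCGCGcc
Grin2c: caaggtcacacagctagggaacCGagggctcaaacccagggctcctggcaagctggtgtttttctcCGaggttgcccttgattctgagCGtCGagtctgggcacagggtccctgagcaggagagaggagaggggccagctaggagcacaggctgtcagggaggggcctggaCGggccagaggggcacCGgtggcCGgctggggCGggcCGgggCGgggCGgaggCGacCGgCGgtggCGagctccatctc
Grm3: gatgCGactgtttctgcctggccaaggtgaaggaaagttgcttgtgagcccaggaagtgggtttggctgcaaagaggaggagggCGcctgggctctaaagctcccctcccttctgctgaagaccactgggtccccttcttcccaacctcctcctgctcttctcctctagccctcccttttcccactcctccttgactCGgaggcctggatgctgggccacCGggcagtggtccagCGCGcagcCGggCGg
Gabrg1: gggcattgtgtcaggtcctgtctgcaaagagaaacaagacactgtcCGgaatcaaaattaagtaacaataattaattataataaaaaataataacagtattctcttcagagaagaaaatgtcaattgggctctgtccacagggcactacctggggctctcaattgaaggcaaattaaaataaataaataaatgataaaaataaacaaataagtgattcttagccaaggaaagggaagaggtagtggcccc
Lhfpl4 had 17 CG dinucleotides in this window and Grin2c 15, counts that 23.5% and 27.3% of the 32851 promoters in the RefSeq table reach or exceed. Grm3 had 8 and Gabrg1 only 1, which 43.0% and 92.1% of all promoters reach or exceed. A promoter was found for 33 of the 48 receptor genes, and their median was 12 CG dinucleotides against 6 over all promoters. The letters GGGCGG, the core of an Sp1 site, were searched for on both strands. They occurred in the windows of 18 of these 33 genes, Lhfpl4, Grin2c and Grm3 included and Gabrg1 not, against 32.7% of all promoters. TATAAA, which binds the TATA-binding protein, occurred in 3 of the 33 genes (12.4% of all promoters), and ACAAAG, a core bound by SOX factors, in 4, Lhfpl4 among them (16.5% of all promoters). These are matches of letters, with no measure of binding.

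Lower values in every Npc1-/- mouse were found in 8 of the 32 receptor genes tested, against 14.2% of all genes, and none of them was a kainate receptor gene. Gria4, Grin2c, Grin2d, Grm3, Gabrb1, Gabrg1 and Gabbr2 were among them. The largest of these differences were in Grm3 and Grin2c. In the same mice 8 of 9 astrocyte markers had negative log2 fold changes, 6 of them without overlap, with sums of 707 to 775 scaled TPM in WT and 470 to 894 in Npc1-/- and Gfap the exception at 1.01. The median of the 9 astrocyte markers was −0.42 on the log2 scale. Fgfr3, Gja1, Slc1a2 and Slc1a3 had −0.87, −0.81, −0.79 and −0.73, and Aqp4, Sox9, Aldh1l1 and Aldoc ran from −0.42 to −0.21. Grm3 had −0.79 and Grin2c −0.73. No astrocyte marker was at 0 in any library, and the part of astrocytes in these 8 genes was not tested. In the plot of the genes whose groups do not overlap, the gap between the groups is wide for Grin2c, Gabrg1 and Gabrb1 and narrow for Grin2d.

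**Figure D3:**
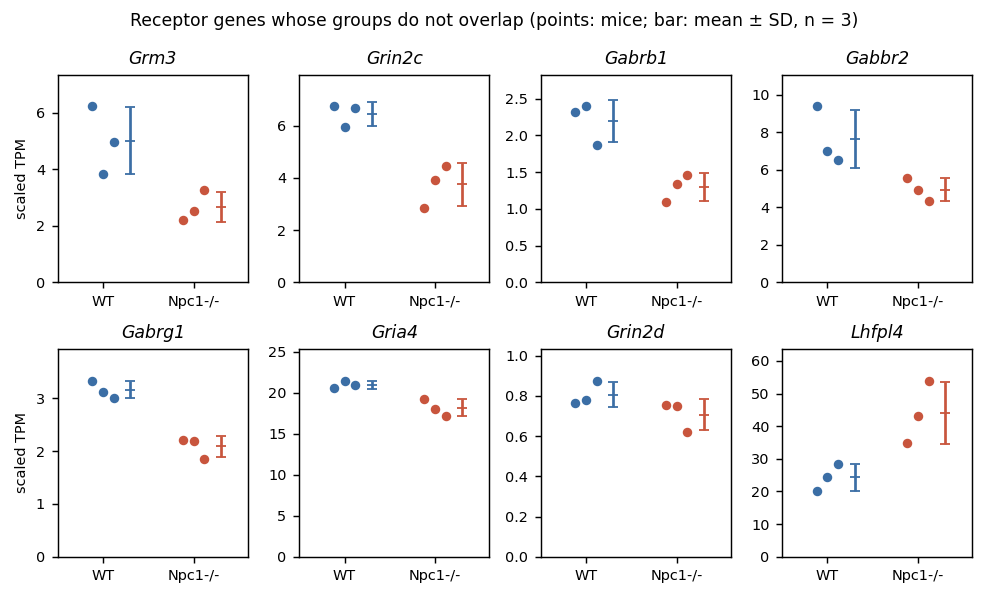
Scaled TPM of 8 of the 10 receptor genes whose groups do not overlap, with 1 point per mouse and a bar for the mean ± SD (n = 3), and each vertical axis starting at 0. The first 7 panels are lower in all Npc1-/- mice, and Lhfpl4 is higher, from 20.03 to 28.5 in WT and 35 to 54 in Npc1-/-.

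AMPA receptors carry most fast excitatory currents, and the Gria2 subunit makes them impermeable to calcium. Gria4 had 20.5, 21.5 and 20.9 scaled TPM in the WT mice, a narrow range, and 19.2, 18 and 17.2 in the Npc1-/- mice. All 3 Npc1-/- mice lay below it, but the difference was small (log2 fold change −0.20, SE 0.0834, limma adjusted p = 0.208). Gria1 had 12.3, 9.31 and 12.2 scaled TPM in WT and 6.67, 8.02 and 9.45 in Npc1-/-, and only Npc1-/- replicate 3 reached the lowest WT mouse (log2 fold change −0.46, and −0.58 without that mouse). Gria2 had 20.1, 25 and 22.1 scaled TPM in WT and 28.1, 26.5 and 20.9 in Npc1-/-, where 2 of 3 mice lay above the WT range. Its groups overlapped, and so did those of the X-linked Gria3, at 5.11, 5.46 and 4.79 in WT and 7.71, 5.65 and 4.18 in Npc1-/-. The log2 fold change of Gria2 was 0.16 and that of Gria3 was 0.14. Without Npc1-/- replicate 3 they were 0.28 and 0.34.

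Within the AMPA receptor family the groups were separated in the share of Gria4. They overlapped in the total and in the shares of Gria1, Gria2 and Gria3. The 4 genes summed to 59.7 ± 1.66 scaled TPM in WT and 57.2 ± 5.08 in Npc1-/- (SD, n = 3), a difference smaller than the SD of the Npc1-/- mice. Gria4 made up 35.4, 35 and 34.9% of the family's TPM in the WT mice and 31.2, 31 and 33.2% in the Npc1-/- mice, without overlap. Gria2 made up 34.6, 40.8 and 36.8% in WT and 45.5, 45.6 and 40.4% in Npc1-/-, where 1 Npc1-/- mouse lay within the WT range. Such shares do not depend on the size factors. They were not tested, since the shares of one family are tied to each other.

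NMDA receptors need glutamate and a co-agonist, and all of them contain the Grin1 subunit. Grin2c, which encodes a subunit of NMDA receptors with weak magnesium block, was the most abundant NMDA receptor gene in WT O4+ cells. It had 6.74, 5.93 and 6.66 scaled TPM in the WT mice and 2.84, 3.93 and 4.47 in the Npc1-/- mice. The highest Npc1-/- mouse lay below the lowest WT mouse, and the means were 6.44 ± 0.448 and 3.75 ± 0.831 (SD, n = 3 each), a ratio of 0.582. The log2 fold change was −0.73 (SE 0.164) with a limma adjusted p of 0.0678. Without Npc1-/- replicate 3 it was −0.86 and the adjusted p was 0.0488, the only receptor gene that any single mouse left out brought below 0.05. Grin2d, which is mostly expressed early in development, had 0.764, 0.777 and 0.876 scaled TPM in WT and 0.753, 0.749 and 0.619 in Npc1-/-. Its groups were separated by a gap smaller than the spread in either (log2 fold change −0.11, SE 0.163, limma adjusted p = 0.739). Grin3a, whose product lowers calcium permeability, had 2.33, 2.21 and 2.25 in WT and 2.58, 1.8 and 1.64 scaled TPM in Npc1-/-, with the highest value in an Npc1-/- mouse (log2 fold change −0.16, and −0.06 without Npc1-/- replicate 3).

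Grin1 itself was not lower. It had 2.32, 2.11 and 2.95 scaled TPM in WT and 4.19, 2.39 and 3.12 in Npc1-/-, with overlapping groups (log2 fold change 0.32). As a share of the NMDA receptor genes, Grin2c made up 52.7, 52 and 50.4% in the WT mice and 26.1, 42.2 and 42% in the Npc1-/- mice. Grin1 made up 18.1, 18.5 and 22.3% in WT and 38.5, 25.6 and 29.3% in Npc1-/-. Neither share overlapped between the groups, and Npc1-/- replicate 1 was the most extreme in both. The 4 Grin2 genes together summed to 7.47 ± 0.466 scaled TPM in WT and 4.67 ± 0.757 in Npc1-/- (SD, n = 3). Grin2a and Grin2b, the usual Grin2 subunits of forebrain neurons, were nearly absent, at no more than 0.11 and 0.25 TPM in any mouse.

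**Figure D4:**
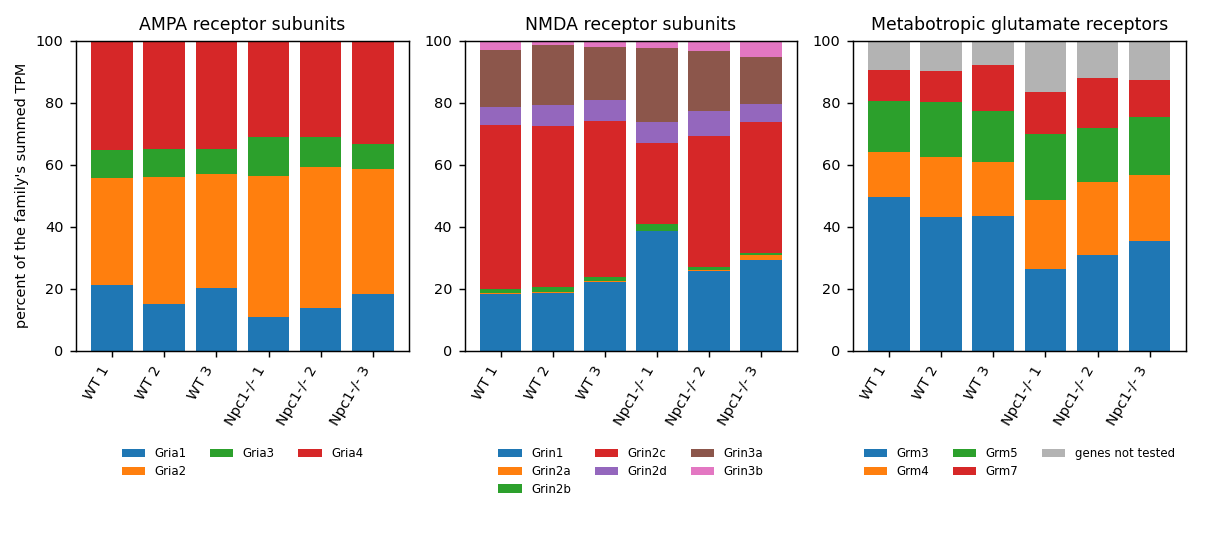
Share of each gene in the summed TPM of its family, in percent, with 1 stacked bar per mouse for the AMPA receptor, NMDA receptor and metabotropic glutamate receptor genes, and metabotropic genes below the level tested drawn as 1 grey segment. Grin2c takes 50.4 to 52.7% of the NMDA receptor bar in WT and 26.1 to 42.2% in Npc1-/-, and Grm3 takes 43.0 to 49.4% and 26.3 to 35.4% of the metabotropic bar.

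Kainate receptor genes showed no difference beyond their spread. Grik5, a subunit with high affinity for kainate that needs a Grik1, Grik2 or Grik3 partner, was next to Gabbr1 in level in WT, beside Lhfpl4, at 24.4, 24 and 25.7 scaled TPM, with 25.7, 25.7 and 25.7 in Npc1-/-. Its log2 fold change was 0.06, and before scaling its TPM ran lower in Npc1-/-, with a log2 fold change of −0.31 that is close to the shift of all genes. Grik3 had 9.84, 10.1 and 8.24 scaled TPM in WT and 10.04, 6.55 and 5.19 in Npc1-/-. Replicate 1 of the Npc1-/- mice lay among the WT mice and the other 2 lay below them (log2 fold change −0.39). That value was −0.20 without Npc1-/- replicate 3 and −0.64 without Npc1-/- replicate 1. Grik2 had 7.6, 5.71 and 4.54 in WT and 8.53, 6.82 and 5.85 scaled TPM in Npc1-/-, and its spread within each group was as wide as the gap between them (log2 fold change 0.24, and 0.36 without Npc1-/- replicate 3). Grik1, at 3.14, 4.41 and 3.66 in WT and 3.33, 4.69 and 3.3 in Npc1-/-, and Grik4, a second high-affinity subunit at 3.28, 3.98 and 2.78 in WT and 4.12, 3.93 and 2.48 in Npc1-/-, had log2 fold changes of 0.01 and 0.04, the latter 0.24 without Npc1-/- replicate 3. The 5 genes summed to 47.1 ± 1.92 scaled TPM in WT and 47.3 ± 4.61 in Npc1-/- (SD, n = 3).

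The delta receptors, relatives of the ionotropic glutamate receptors that bind cerebellins rather than conducting glutamate currents, are represented here by Grid1. It had 7.18, 8.18 and 7.13 in WT and 10.01, 9.63 and 5.77 scaled TPM in Npc1-/-, with Npc1-/- replicates 1 and 2 above the WT mice and replicate 3 below them (log2 fold change 0.13, and 0.37 without replicate 3).

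Among the metabotropic receptors, Grm3 stood out. It encodes mGlu3, a group II receptor that lowers cyclic AMP and is well known from astrocytes. Its levels were 6.24, 3.85 and 4.97 scaled TPM in the WT mice and 2.22, 2.54 and 3.28 in the Npc1-/- mice. The lowest WT mouse lay above the highest Npc1-/- mouse, and the means were 5.02 ± 1.19 and 2.68 ± 0.54 (SD, n = 3 each), a ratio of 0.534. The log2 fold change of −0.79 (SE 0.199) was the most negative of the 32 genes, with a limma adjusted p of 0.0818, and it was −0.93 without Npc1-/- replicate 3. Grm5, the group I receptor that couples to phospholipase C, had 2.08, 1.58 and 1.89 scaled TPM in WT and 1.8, 1.44 and 1.73 in Npc1-/- (log2 fold change −0.12). Of group III, Grm4 had 1.86, 1.74 and 2.01 in WT and 1.89, 1.97 and 1.97 scaled TPM in Npc1-/- and Grm7 had 1.23, 0.913 and 1.67 in WT and 1.16, 1.32 and 1.09 in Npc1-/-. Neither differed beyond its spread, with log2 fold changes of 0.04 and −0.05. Grm3 made up 49.4, 43 and 43.4% of the metabotropic receptor TPM in the WT mice and 26.3, 30.7 and 35.4% in the Npc1-/- mice, without overlap. Grm2, Grm6 and Grm8 were below the level tested, with highest values of 0.61, 0.03 and 0.67 TPM.

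The GABA-A receptor alpha subunits set the channel's kinetics and its sensitivity to benzodiazepines. Gabra2 was the most abundant of those given here, at 5.28, 4.9 and 5.75 scaled TPM in WT and 4.28, 5.5 and 5.6 in Npc1-/-, with overlapping groups (log2 fold change −0.05). The X-linked Gabra3 had 2.21, 1.53 and 2.22 in WT and 2.69, 2.22 and 2.93 scaled TPM in Npc1-/-, and the lowest Npc1-/- mouse was nearly equal to the highest WT mice (log2 fold change 0.33, and 0.26 without Npc1-/- replicate 3). Gabra4 had 1.51, 1.5 and 1.31 in WT and 0.971, 1.87 and 1.14 in Npc1-/- (log2 fold change −0.11). Gabra6, a subunit of cerebellar granule neurons, had 0.602, 0.343 and 1.03 in WT and 0.408, 0.667 and 0.839 in Npc1-/- (log2 fold change 0.00, and −0.13 without Npc1-/- replicate 3), from as few as about 22.8 fragments per library.

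Lower values in Npc1-/- were seen in 1 beta and 1 gamma subunit. Gabrg1, a gamma subunit, had 3.34, 3.13 and 3.01 scaled TPM in the WT mice and 2.21, 2.2 and 1.86 in the Npc1-/- mice. The groups were far apart for their spread, with means of 3.16 ± 0.163 and 2.09 ± 0.202 (SD, n = 3 each) and a log2 fold change of −0.50 (SE 0.125, limma adjusted p = 0.0807). Gabrb1 had 2.32, 2.4 and 1.87 scaled TPM in WT and 1.09, 1.33 and 1.46 in Npc1-/-. It too was lower in all Npc1-/- mice (log2 fold change −0.59, SE 0.158, limma adjusted p = 0.0923). Gabrd, the delta subunit of extrasynaptic receptors, had 0.633, 0.687 and 1.08 in WT and 0.726, 0.83 and 0.977 scaled TPM in Npc1-/- (log2 fold change 0.06).

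GABA-A receptor genes lie in clusters in the mouse genome, and neighbours on chromosome 5 had unlike fold changes, though the differences between them were not tested. Gabrg1 (chr5:70751047-70842617, GRCm38), Gabra2 (chr5:70957597-71095849), Gabra4 (chr5:71569749-71658308) and Gabrb1 (chr5:71658113-72149037) follow each other, and their log2 fold changes were −0.50, −0.05, −0.11 and −0.59. The 2 outer genes were lower in all Npc1-/- mice and the 2 inner genes overlapped between the groups. Exons at the 5′ ends of Gabra4 and Gabrb1 overlap on opposite strands, and exons of Grin2c, Grin2d and Grin1 overlap other annotated genes on the opposite strand. The sources used here do not say whether reads were assigned by strand, so reads in those overlaps cannot be told apart.

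The GABA-B receptor is an obligate pair of Gabbr1, which binds GABA, and Gabbr2, which couples to the G protein, and the means of the 2 genes differed in direction. Gabbr1 had the highest level of all receptor genes, 66.2, 73.8 and 79.4 scaled TPM in WT and 73.2, 86 and 109 in Npc1-/-. Its groups overlapped, and the highest value was that of Npc1-/- replicate 3 (log2 fold change 0.27). The fold change was 0.12 without that mouse and 0.41 without Npc1-/- replicate 1. Gabbr2 had 9.4, 6.99 and 6.52 scaled TPM in the WT mice and 5.59, 4.95 and 4.32 in the Npc1-/- mice. All Npc1-/- mice lay below all WT mice, with means of 7.63 ± 1.54 and 4.95 ± 0.635 (SD, n = 3 each), a log2 fold change of −0.57, SE 0.162 and limma adjusted p of 0.102. Gabbr2 thus held 12.4, 8.64 and 7.58% of the pair's TPM in the WT mice and 7.1, 5.44 and 3.81% in the Npc1-/- mice, which did not overlap. The direction of Gabbr1 depended on the scaling, with a log2 fold change of −0.10 on TPM as deposited, while Gabbr2 was negative on both scales.

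The other 16 receptor genes had a mean TPM below 0.5 and were not tested. Besides those named, Grin3b reached at most 0.52 TPM in any mouse, Gabra5 0.55, Gabrb2 0.66 and Gabrg3 0.29. The highest values were 0.13 for Gabre, 0.14 for Gabrp, 0.13 for Gabrq, 0.08 for Gabrr1, 0.16 for Gabrr2 and 0.01 for Gabrr3. The last 3 encode rho subunits, best known from the retina. In Grm2 and Gabrq every Npc1-/- mouse lay above every WT mouse, at 0.262, 0.0994 and 0.318 scaled TPM in WT and 0.554, 0.339 and 0.743 in Npc1-/- for Grm2. Gabrq had 0.0309, 0.0362 and 0.0289 in WT and 0.118, 0.117 and 0.055 in Npc1-/-, which rests on about 4.34 to 18.4 fragments per library.

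The proteins that traffic, anchor or signal for these receptors, and those that supply and clear their transmitters, were taken from 7 lists. No gene on these lists was called. The counts without overlap below stand beside 13.3% of all genes higher and 14.2% lower. Of 19 genes tested that assist AMPA receptors, 4 were higher in all Npc1-/- mice and none lower, and the median log2 fold change was 0.07 (all genes 0.01). Cacng4, a TARP that traffics AMPA receptors and is also an OPC marker, had 23, 21.9 and 19.7 scaled TPM in WT and 41.7, 41.4 and 26.1 in Npc1-/- (log2 fold change 0.72, limma adjusted p = 0.0861). Cnih2, a cornichon that escorts AMPA receptors from the endoplasmic reticulum, had 25.5, 23.7 and 31.8 in WT and 36, 33.1 and 40.4 in Npc1-/- (0.43, adjusted p = 0.117). Pick1, which binds the tail of Gria2, had a log2 fold change of 0.29. No Gria gene was higher in all Npc1-/- mice.

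Among 10 partners of NMDA, kainate and delta receptors, 1 was lower in all Npc1-/- mice, Cbln2, a cerebellin that bridges delta receptors to neurexins, at 3.38, 3.54 and 2.74 scaled TPM in WT and 2.18, 1.68 and 1.27 in Npc1-/- (log2 fold change −0.77, limma adjusted p = 0.078). Cbln1 and Srr, which makes the co-agonist D-serine, had log2 fold changes of 0.43 and 0.20. Of 13 scaffold and signalling genes of mGlu receptors, 5 were lower and 1 higher in all Npc1-/- mice (all genes 14.2% lower and 13.3% higher), and their median log2 fold change was −0.21 against 0.01 for all genes. Homer2, a scaffold that ties group I mGlu receptors to their effectors, was the higher one, at 6.01, 7.2 and 6.61 in WT and 11, 8.97 and 10.03 scaled TPM in Npc1-/- (log2 fold change 0.56, adjusted p = 0.0602). Itpr1, the inositol trisphosphate receptor, and Plcb1, a phospholipase C, had log2 fold changes of −0.72 and −0.39.

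Of 15 GABA-A receptor partners, 1 was higher and 1 lower in all Npc1-/- mice, with a median log2 fold change of 0.05. Gabarap, which binds and traffics GABA-A receptors, had a log2 fold change of 0.33, the cytoskeletal linker Macf1 −0.30, and Lhfpl3, a relative of Lhfpl4 and an OPC marker, 0.53. Of 7 GABA-B receptor partners, 2 were lower and 1 higher in all Npc1-/- mice, against 14.2% and 13.3% of all genes, with a median of 0.22. Kctd12, an auxiliary subunit that binds Gabbr2 and speeds desensitization, had 13.3, 13 and 12.7 scaled TPM in the WT mice and 7.72, 7.49 and 9.56 in the Npc1-/- mice. Like Gabbr2 it was lower in all Npc1-/- mice (log2 fold change −0.63, SE 0.114, limma adjusted p = 0.0545). Kctd12b and Itfg1 had log2 fold changes of −0.51 and 0.24.

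Of 12 genes for glutamate uptake, synthesis and vesicular loading, 4 were lower and 1 higher in all Npc1-/- mice, against 14.2% and 13.3% of all genes, and the median log2 fold change was 0.01. The glial transporters Slc1a2, at 106, 92.6 and 95 in WT and 46.2, 54.9 and 69.5 scaled TPM in Npc1-/-, and Slc1a3, at 119, 78.1 and 88.4 in WT and 53.3, 55.8 and 59.4 in Npc1-/-, had log2 fold changes of −0.79 and −0.73 (limma adjusted p = 0.0557 and 0.0623). Slc7a11, the cystine-glutamate exchanger, had −0.65. Of 9 genes for GABA synthesis, uptake and breakdown, 3 were lower in all Npc1-/- mice and none higher, with a median of −0.20. Among them were the GABA transporter Slc6a11, at −0.65 on the log2 scale, and Maob, an enzyme of GABA synthesis from putrescine in astrocytes, at −0.43 (limma adjusted p = 0.0649 and 0.0923).

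Markers of the cell types that the O4 capture could hold were read beside the receptor genes. Those of mature oligodendrocytes summed to 171801 to 242945 scaled TPM in WT and 217548 to 431823 in Npc1-/-. Mbp alone gave 145087 to 201807 of this in WT and 183641 to 359525 in Npc1-/-. The markers of committed and immature oligodendrocytes summed to 4755 to 6436 and 5579 to 8364. Genes of the lineage were thus abundant, but sums led by single genes do not measure the purity of the capture. Of the 8 committed and immature markers tested, 6 had negative log2 fold changes, 2 of them without overlap (all genes 14.2%), and the median was −0.18. Bcas1, 1 of the 2 positive ones, had means of 2247 scaled TPM in WT and 3845 in Npc1-/-. All 9 markers of mature oligodendrocytes had positive log2 fold changes, 4 of them without overlap (all genes 13.3%). The 10 OPC markers were split evenly, with sums of 203 to 234 in WT and 175 to 298 in Npc1-/-. The astrocyte markers are given above. Microglia markers summed to 215 to 333 in WT and 102 to 190 in Npc1-/-, with all 8 negative and Tmem119 called lower (all genes 0.413%). Endothelial and pericyte markers summed to 657 to 966 and 445 to 521, with all 8 negative.

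Purkinje cell markers summed to 302 to 343 scaled TPM in WT and 856 to 1021 in Npc1-/-. Of these, 6 of 8 were higher and 1 lower without overlap, against 13.3% and 14.2% of all genes. Pcp2, Pcp4 and Car8 were called higher in limma, against 0.4% of all genes. Of the markers of neurons in general, 3 of 12 were higher and 1 lower without overlap, beside the same shares of all genes. Nefl and Nefm were called higher. Markers of granule neurons (74.4 to 146 and 76.3 to 160), forebrain excitatory neurons (104 to 183 and 100 to 201) and inhibitory neurons (15.6 to 25.7 and 19.6 to 30.1) overlapped between the groups. No marker of microglia, endothelial cells, Purkinje cells or neurons in general was at 0 in any library, and Vip, of inhibitory neurons, was at 0 in WT replicate 1. Several marker genes (Slc1a2, Slc1a3, Itpr1, Slc1a6, Cacng4 and Lhfpl3 among them) also stand on the lists of receptor partners. The part of these other cells in the receptor values was not tested, and in bulk RNA fewer cells of a type and less RNA per cell cannot be told apart.

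**Figure D5:**
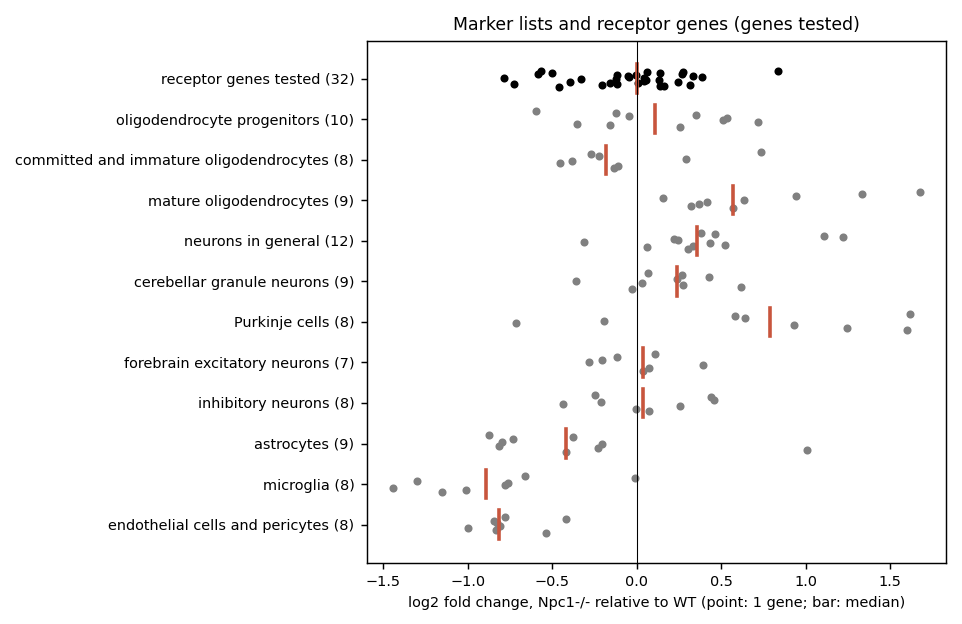
Log2 fold change, Npc1-/- relative to WT, of the 32 receptor genes tested (black) and of the tested genes of each cell type marker list (grey), with 1 point per gene and a red bar at each median. The median is 0.00 for the receptor genes, 0.57 for mature oligodendrocytes, 0.79 for Purkinje cells, −0.42 for astrocytes, −0.89 for microglia and −0.82 for endothelial cells and pericytes.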

How the data were processed

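O4+ cells from 3 WT and 3 Npc1-/- mice were sequenced as poly(A) RNA, with 1 library per mouse, and groups and replicate numbers came from the sample labels. The authors deposited gene TPM and FPKM with 2 decimals. FPKM was TPM times 1 factor per library (0.653 to 0.721) and was used only to estimate depth. The submitters' processing notes name cutadapt 2.3, STAR 2.7.8a, RSEM 1.3.3 and GRCm38, and the study's methods name STAR, featureCounts and DESeq2. Which of these made the deposited TPM, the annotation release and the use of strand are not given in the sources used here. Since the unit is TPM, no count test was run.

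TPM was divided by median-of-ratios size factors over 18690 genes. The 15245 genes whose TPM averaged 0.5 or more entered the test, on log2(scaled TPM + 0.5) with limma 3.58.1 (R 4.3.3, trended variance) and Benjamini-Hochberg adjustment at 0.05. Replicates are separate mice. With 3 mice a group, no exact permutation test can go below p = 0.1, so none was run. Depth was read from 697 to 944 single-transcript genes a library, in which 79.8 to 82.8% of low FPKM values were no more than 0.15 from a whole fragment number (30% by chance). Positions came from the GENCODE annotation and promoters from RefSeq, both on GRCm38. The scripts were tested on simulated data.

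The receptor genes, partner lists and marker lists were chosen with earlier results of these data known. Receptor genes at or above that average are given for every mouse and the rest by their highest value. Full statistics are given for genes without overlap and Lhfpl4, and from each partner list the 3 genes with the smallest p are named. Of the receptor and partner genes, 6 are not reported here by name or drawn in the plots by gene, and they stay in the counts, sums and medians. Alternatives tried were other pseudocounts, filters and scalings, limma without a trend, a replicate block, a correction for transcript length and leaving out each mouse.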

Additional observations from a re-analysis of the deposited data

How the results depend on the processing

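The count of receptor genes called moved with 3 choices. It was 0 higher and 3 lower on TPM as deposited (Grin2c −1.07, Grm3 −1.12 and Gria1 −0.82 on the log2 scale), where all genes shift by −0.33 and the receptor genes' median was −0.31. It was 1 higher and 3 lower with a replicate block, with adjusted p = 0.0127 for Lhfpl4, 0.0280 for Gabbr2, 0.0380 for Grin2c and 0.0479 for Gabrg1, while that fit called 1143 genes higher and 868 lower in all. For Grm3, Gabrb1, Gria4 and Grin2d, also without overlap, the blocked adjusted p was 0.0511, 0.0721, 0.146 and 0.705. The replicate numbers name different mice, and the labels do not say whether a number marks a shared litter or preparation, so the main fit did not pair the samples. The deviations of same-numbered mice correlated at 0.414, 0.0602 and 0.326, and those of differently numbered mice at −0.391 to 0.0548. Each mouse thus correlated best with its own number, but for Npc1-/- replicate 2 only by 0.0602 against 0.0548 with WT replicate 3. The deviations are from group means, so the correlations are tied to each other. Whether the numbers pair the samples cannot be settled here. With each mouse left out in turn, 0 receptor genes were called higher and 0 to 1 lower.

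Receptor genes higher without overlap numbered 4 with no filter (all genes 2507), 1 at a mean TPM of at least 5 (all genes 1514) and 1 on TPM as deposited. They numbered 3 with quantile normalization (all genes 2011), 3 with the length curve removed (all genes 1915), and 2 to 7 with each mouse left out. The 7 arose without WT replicate 3, where 2960 of the 15245 genes tested were higher without overlap and 2987 lower. Receptor genes lower without overlap numbered 4 at a mean TPM of at least 5 (all genes 1260), where fewer genes are tested. They numbered 11 on TPM as deposited (all genes 394 higher and 3906 lower), 7 with quantile normalization (all genes 2103), 7 with the length curve removed (all genes 2067), and 8 to 10 with each mouse left out. The median log2 fold change ran from −0.04 to 0.01 with each mouse left out. The sign of genes near 0 turned on TPM as deposited, to −0.10 for Gabbr1, −0.10 for Grik2, −0.17 for Gabrd, −0.20 for Gria3, −0.21 for Gria2, −0.22 for Grid1, −0.25 for Grm4, −0.27 for Grik4, −0.31 for Grik5 and −0.32 for Grik1. It also turned for Gabra6 with a pseudocount of 0.1 (0.0192) and with quantile normalization (0.00541), and for Gabra2 (0.0364) and Grm5 (0.0027) with a curve on transcript length removed. With each mouse left out, it turned in 9 genes, over ranges of −0.14 to 0.12 (Grik1), −0.02997 to 0.21 (Gabrd), −0.21 to 0.22 (Gabra6), −0.069 to 0.24 (Grik4), −0.20 to 0.11 (Grm7), −0.12 to 0.0633 (Gabra2), −0.0619 to 0.34 (Gria3), −0.32 to 0.0292 (Gabra4) and −0.000198 to 0.37 (Grid1). Without a change of sign the fold change moved by over 1.5 times against the main fit in Gabbr1 (0.12 to 0.41), Grik3 (−0.64 to −0.20), Grin1 (0.14 to 0.49), Grik2 (0.0758 to 0.42), Grin3a (−0.31 to −0.058), Gria2 (0.079 to 0.28) and Gabra3 (0.19 to 0.43). It did so too in Grin2d, Grm5, Grik5 and Grm4, whose fold changes were small. Gria1 (−0.59 to −0.34), Gabbr2 (−0.67 to −0.42), Grin2c (−0.86 to −0.56) and Grm3 (−0.95 to −0.63) moved less against the main fit, but their ranges were also wide. The cause was not tested. Receptor genes under about 100 fragments a library, such as Gabra6 and Gabrd, are limited by depth. Lhfpl4, Grm3, Grin2c, Gabrg1, Gabrb1, Gabbr2 and Gria4 kept their sign under the alternatives in which they were tested.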
